A study of Mus musculus with 3 samples.

Results

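The genes described here encode proteins of the mouse mitochondrial ribosome and of the machinery that imports proteins into mitochondria, compared between liver and spleen. They were chosen by name, as every gene whose single symbol in the platform annotation starts with Mrpl or Mrps and a number, or with Timm or Tomm. This gave 66 of the 7984 named genes, measured by 144 of 16273 spots: 29 Mrpl, 17 Mrps, 13 Timm and 7 Tomm genes. The data came from 3 cDNA arrays that form 1 group. Each array carried mouse spleen RNA labelled with Cy3 and mouse liver RNA labelled with Cy5, both made by a double round of amplification from total RNA bought from Clontech. Strain, age, sex and number of animals are not stated in the labels. The arrays are numbered replicates 1, 2 and 3, and nothing says that they came from separate animals or amplifications, so their spread may be technical only. Liver was in the same dye on every array, so effects of dye and of tissue cannot be told apart.

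Mitochondria hold their own ribosome, which translates the few proteins encoded in mitochondrial DNA, all of them subunits of the respiratory chain and ATP synthase. Its proteins are encoded in the nucleus: Mrpl genes give the large subunit and Mrps genes the small one. They are made in the cytosol and enter through the outer membrane pore (TOM, Tomm genes) and the inner membrane translocases (TIM, Timm genes), as do nearly all mitochondrial proteins. Hepatocytes are rich in mitochondria, whereas most spleen cells are lymphocytes with little cytoplasm.

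Values are log2 ratios of the 2 channels, averaged over a gene's spots on each array. Positive values are called liver side. This direction is likely rather than stated: the labels do not state the numerator, and the sign was set from tissue markers. Of 16 liver markers, 3 could be tested and all were called on the liver side, and of 11 spleen lymphocyte markers, 5 could be tested and all were called on the spleen side. Among 10 markers of dividing cells, 4 were tested, all on the spleen side, and of 7 macrophage markers none could be tested. Erythroid markers were mixed: of 4 tested, 3 were called on the spleen side and Alas2, of haem synthesis, on the liver side (0.91, adjusted p = 0.0216). The ratios are of bulk RNA, in which fewer cells of a type and less RNA per cell cannot be told apart, and the part of cell composition in the results was not tested. An exact 0 in the deposited values was treated as missing. The members' spots had a ratio in 84.7%, 80.6% and 97.9% of cases on arrays 1, 2 and 3, against 80.3%, 68.3% and 93.5% of all spots. A ratio on all 3 arrays was found for 56 of the 66 genes, and these were tested with limma against a ratio of 0. A gene was called when its p, adjusted by Benjamini-Hochberg over all 5731 genes tested, was under 0.05.

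Most of these genes were on the liver side. Of the 56 tested, 44 were called there and 1, Tomm34, on the spleen side, while 11 were not called. Over all genes tested, 54.9% were called, with 27.1% higher in liver and 27.8% higher in spleen. The members' median log2 ratio was 0.79, or 0.81, 0.91 and 0.68 on arrays 1, 2 and 3, against -0.03 over all genes tested. All 3 arrays were above 0 for 48 members and below 0 for 3, and 5 had mixed signs. Over all genes, 37.6% were above 0 on each array and 38.3% below 0 on each. The differences were moderate: 20 of the 44 reached a log2 ratio of 1, a 2-fold difference, and only Mrpl12 reached 2. Over all genes, 13.4% were called on the liver side with a ratio of at least 1. Without array 1, 27 members were called on the liver side, with each gene's own variance 28, and Tomm34 was the 1 call on the spleen side under both. Calls of all genes, in either direction, fell from 54.9% to 32.7% and 25.5% in the same order.

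**Figure D1:**
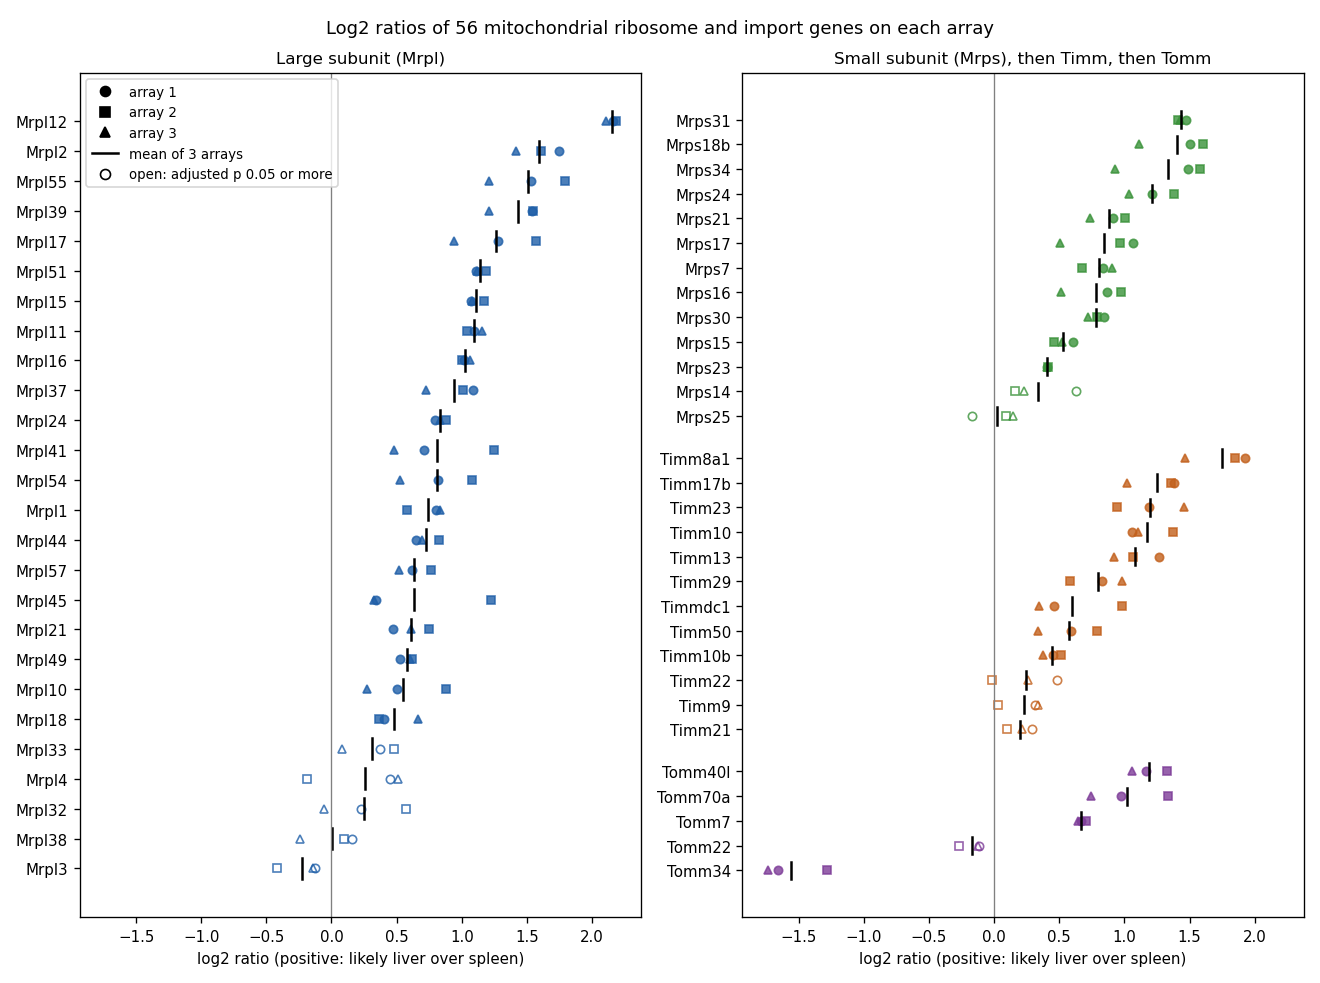
Log2 ratio of liver and spleen (x axis, positive likely liver over spleen) of the 56 tested genes (y axis), ordered by mean within each family; symbols are the 3 arrays, vertical bars their mean, and open symbols mark genes that were not called. Most genes lie to the right of 0 on all 3 arrays, Mrpl12 farthest at a mean of 2.15, and Tomm34 alone lies far to the left, at -1.56.

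The promoters of these genes were read for short motifs of factors known to serve many nuclear genes of mitochondria and of translation. The windows, from RefSeq on GRCm38.p6, run from 250 bases before to 50 after a gene's start and were available for 57 of the 66 genes. The motifs, searched on both strands, were GCGCNTGCG for NRF1 (nuclear respiratory factor 1), CCGGAAG for ETS factors such as GABPA, AANATGGCG for YY1, and GGGCGG for SP1; each was counted on its own, overlaps included. The NRF1 motif was in 16 of the 57 genes (28.1%), against 14.7% of 4643 tested genes and 7.12% of 27025 genes with a window. With a C added at its 3′ end it was in 10 genes (17.5%), against 10.8% and 5.19%. The ETS motif was in 22 genes (38.6%), against 18.7% and 9.93%, and the YY1 motif in 5 (8.77%), against 5.45% and 2.76%. The SP1 motif was in 52.6%, against 61.1% of tested genes and 38.2% of all. In the respiratory chain genes the NRF1 motif was in 37% and the ETS motif in 21.7%, and in cytosolic ribosomal protein genes in 11.8% and 43.1%. The 8 Mrpl genes with the NRF1 motif made up 32% of 25, and their ratios ran from high to low. Mrpl12 had a mean log2 ratio of 2.15, Mrpl39 of 1.43 and Mrpl17 of 1.26. Mrpl44 had 0.72, Mrpl57 0.64, Mrpl45 0.63 and Mrpl10 0.55, and Mrpl32, at 0.25, was not called. The liver-side genes with the highest ratio that held the NRF1, ETS and YY1 motif (Mrpl12, Mrps18b and Mrps24) are given with the spleen-side Tomm34, to set their windows beside their opposite ratios. Tomm34 has a second, overlapping window that is not printed. Capitals mark NRF1, ETS and YY1 matches, read 5′ to 3′ on the gene's strand.
Mrpl12, chr11:120484387-120484686, plus strand: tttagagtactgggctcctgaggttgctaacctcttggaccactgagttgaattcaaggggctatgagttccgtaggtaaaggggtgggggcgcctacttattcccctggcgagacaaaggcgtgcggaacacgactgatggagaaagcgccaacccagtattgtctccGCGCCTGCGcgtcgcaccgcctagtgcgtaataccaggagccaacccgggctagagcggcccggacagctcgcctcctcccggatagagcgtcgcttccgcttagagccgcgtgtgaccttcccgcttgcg
Mrps18b, chr17:35916391-35916690, minus strand: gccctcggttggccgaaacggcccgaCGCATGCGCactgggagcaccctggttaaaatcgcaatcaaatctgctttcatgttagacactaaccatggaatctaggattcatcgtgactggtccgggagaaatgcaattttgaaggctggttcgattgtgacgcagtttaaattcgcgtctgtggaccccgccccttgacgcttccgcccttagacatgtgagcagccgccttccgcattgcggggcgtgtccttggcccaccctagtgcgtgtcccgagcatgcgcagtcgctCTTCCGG
Mrps24, chr11:5707652-5707951, minus strand: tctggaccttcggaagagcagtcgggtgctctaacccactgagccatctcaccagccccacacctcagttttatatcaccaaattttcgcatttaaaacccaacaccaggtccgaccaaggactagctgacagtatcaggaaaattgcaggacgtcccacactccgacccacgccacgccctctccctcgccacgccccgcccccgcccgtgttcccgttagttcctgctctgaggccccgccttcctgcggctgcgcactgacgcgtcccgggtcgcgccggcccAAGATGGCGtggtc
Tomm34, chr2:164071120-164071419, minus strand: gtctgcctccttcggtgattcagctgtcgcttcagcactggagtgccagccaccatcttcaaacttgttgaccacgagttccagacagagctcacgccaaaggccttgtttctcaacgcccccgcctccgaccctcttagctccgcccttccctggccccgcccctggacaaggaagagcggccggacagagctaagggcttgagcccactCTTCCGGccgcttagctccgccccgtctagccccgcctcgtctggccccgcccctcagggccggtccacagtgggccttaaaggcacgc
In Mrpl12 and Mrps18b the NRF1 match lies upstream of the start, and in Mrps18b and Mrps24 the ETS and YY1 matches lie downstream of it. Tomm34 held an ETS match too, so this motif was present on both sides of the comparison. Among genes with a window, the ETS motif was in 15 of 39 called on the liver side (38.5%) and in 4 of 9 tested genes not called there (44.4%). The NRF1 motif was in 13 of the 39 (33.3%) and in 1 of the 9 (11.1%). The YY1 motif was in 10.3% and 0%, and the SP1 motif in 51.3% and 33.3%, so the higher share was not particular to NRF1. With 9 genes on 1 side, these differences were not tested. A match is a stretch of letters and was not tested for binding.

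Large subunit genes were on the liver side in 21 of 26 tested cases, with none called on the spleen side and a median log2 ratio of 0.77. Mrpl12, which forms the flexible stalk that binds translation factors, had ratios of 2.16, 2.18 and 2.11 on arrays 1, 2 and 3. Its arrays differed by less than those of most members, and both its spots were close, at 2.05 and 2.26. The mean of 2.15 ± 0.04 (SD, n = 3 arrays) is a 4.44-fold difference (limma adjusted p = 0.000101), and it exceeded 95.8% of all genes tested. Mrpl2, a conserved protein near the peptidyl transferase centre, had 1.75, 1.61 and 1.41, a mean of 1.59 ± 0.17 (adjusted p = 0.000342). Mrpl55 had 1.53, 1.79 and 1.21, a mean of 1.51 ± 0.29 (adjusted p = 0.000706). Mrpl39, a protein without a bacterial counterpart, had 1.54, 1.55 and 1.21 from 1 spot, a mean of 1.43 ± 0.19 (adjusted p = 0.000509). In these 4 genes every array was above a ratio of 1, and array 3 was the lowest, by little in Mrpl12.

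At the other end of the large subunit lay genes with little difference. Mrpl3, another protein near the catalytic centre, had -0.13, -0.42 and -0.15, all below 0 but not called (mean -0.23, 95% interval -0.54 to 0.08, adjusted p = 0.17). Its second spot was measured on array 3 alone, at 0.37, where its first spot had -0.66. With spots valued on all 3 arrays only, the mean of Mrpl3 was -0.40, just short of a call (limma adjusted p = 0.0551). Mrpl38, found at the central protuberance, had 0.16, 0.09 and -0.24 (interval -0.33 to 0.34, adjusted p = 0.983). Mrpl32, whose precursor is cut by the m-AAA protease before it joins the ribosome, had 0.23, 0.57 and -0.06 (mean 0.25, interval -0.14 to 0.64, adjusted p = 0.228). The intervals of Mrpl3, Mrpl38 and Mrpl32 all end below 1, so a 2-fold difference in either direction lies outside them. The other 18 tested Mrpl genes, Mrpl15 aside, ranged from 0.26 to 1.26; of these Mrpl33 and Mrpl4 were not called. Without array 1 the calls of Mrpl1, Mrpl10, Mrpl18, Mrpl21, Mrpl41, Mrpl45, Mrpl49, Mrpl54 and Mrpl57 were lost, leaving 12. Mrpl10 and Mrpl45 also lost theirs without array 2, and Mrpl18 and Mrpl45 without array 3, while Mrpl4 was called without array 2. With each gene's own variance 13 Mrpl genes were called, and Mrpl45 lost its call under 9 of 12 alternatives. Of all genes, 32.7% were called without array 1 and 25.5% with own variance, in either direction.

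Small subunit genes gave much the same picture, with 11 of 13 called on the liver side, none on the spleen side and a median of 0.80. Mrps31 had ratios of 1.47, 1.41 and 1.42, a mean of 1.44 ± 0.03 (2.71-fold, adjusted p = 0.000328). Mrps18b, one of several mammalian relatives of bacterial S18, had 1.51, 1.60 and 1.11, a mean of 1.41 ± 0.26 (adjusted p = 0.000765). Mrps34, which is needed for a stable small subunit, had 1.49, 1.58 and 0.93, a mean of 1.33 ± 0.35 (adjusted p = 0.00154). Mrps24, the counterpart of bacterial S3, had 1.21, 1.38 and 1.03, a mean of 1.21 ± 0.17 (adjusted p = 0.000835). Array 3 gave the lowest ratio for Mrps18b, Mrps34 and Mrps24, whereas the 3 arrays of Mrps31 nearly coincided.

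Mrps23 had 0.41, 0.41 and 0.40, the smallest mean among the small subunit genes called (0.41, 1.33-fold, adjusted p = 0.0262). Mrps14, the counterpart of bacterial S14, had 0.63, 0.16 and 0.23 and was not called (interval -0.02 to 0.69, adjusted p = 0.0936). Mrps25 had -0.17, 0.09 and 0.14, with signs that differed between arrays (mean 0.02, interval -0.29 to 0.34, adjusted p = 0.904). The other 6 tested genes, Mrps7, Mrps15, Mrps16, Mrps17, Mrps21 and Mrps30, were all called, at 0.53 to 0.88. Mrps30 is named as a small subunit gene, although its protein sits in the large subunit. Without array 1 the calls of Mrps15, Mrps16, Mrps17 and Mrps23 were lost, leaving 7. Mrps23 also lost its call without array 3, and Mrps14 was called without array 2. Mrps34, Mrps16 and Mrps17 were not called with each gene's own variance. The share of all genes called, in either direction, was 32.7% without array 1 and 25.5% with own variance.

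Proteins named after a bacterial ribosomal protein and those particular to mitochondria were both mostly on the liver side. Symbols up to Mrpl36 and Mrps21 carry the number of a bacterial protein, and most higher ones, Mrps24 being an exception, name proteins absent from bacteria. Of the Mrpl genes, 11 of 15 tested up to Mrpl36 and 10 of 11 from Mrpl37 were called on the liver side, with medians of 0.74 and 0.81. Of the Mrps genes, 6 of 7 up to Mrps21 and 5 of 6 from Mrps22 were called there, with medians of 0.80 and 1.00. The classes were formed by number, so the one from Mrps22 includes Mrps24, at 1.21. Among its other tested genes the middle ratio was that of Mrps30, at 0.78. Both the highest Mrpl ratio (Mrpl12) and the lowest (Mrpl3) belonged to proteins with a bacterial counterpart. The difference between these classes was not tested.

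Timm genes were called on the liver side in 9 of 12 cases, with none on the spleen side and a median of 0.70. Of the 11 that act in import through the inner membrane and intermembrane space, 8 were called, with a median of 0.80. The small Tim proteins are chaperones that carry hydrophobic precursors across the intermembrane space. Among them Timm8a1, the mouse counterpart of the gene lost in a human deafness and dystonia syndrome, had 1.93, 1.85 and 1.47, a mean of 1.75 ± 0.25 (3.36-fold, adjusted p = 0.000358). All 3 of its arrays lay above every array of the other Timm genes. Timm10 had 1.06, 1.37 and 1.10, a mean of 1.18 ± 0.17 (adjusted p = 0.000899). Timm13, the partner of Timm8a1, averaged 1.08, and Timm10b 0.45, and both were called. Timm9, which forms a ring with Timm10, had only 0.32, 0.03 and 0.33 from 1 spot and was not called (mean 0.23, interval -0.09 to 0.54, adjusted p = 0.18). The partners Timm9 and Timm10 thus did not overlap on the 3 arrays, and this difference between the genes was not tested.

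The TIM23 complex passes precursors with a cleavable presequence, and 3 of its 4 tested members were called on the liver side. The channel protein Timm23 had 1.19, 0.94 and 1.46, a mean of 1.20 ± 0.26 (adjusted p = 0.00132). Its relative Timm17b had 1.38, 1.36 and 1.02, a mean of 1.25 ± 0.20 (adjusted p = 0.000849). Unlike Timm17b, Timm23 was highest on array 3. The receptor Timm50 averaged 0.57 and was called. Timm21, which links the complex to the respiratory chain, had 0.29, 0.10 and 0.21 and was not (mean 0.20, interval -0.09 to 0.49, adjusted p = 0.194).

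In the TIM22 complex, which inserts metabolite carriers, Timm29 averaged 0.80 and was called. The channel Timm22 had 0.48, -0.01 and 0.26 and was not (mean 0.24, interval -0.11 to 0.60, adjusted p = 0.193). Timmdc1 bears the Timm name but acts in the assembly of respiratory complex I, and its mean of 0.59 was called. Without array 1, Timm10b, Timm50 and Timmdc1 lost their calls, and Timm10b also without array 3. With each gene's own variance Timm23, Timm29, Timm50 and Timmdc1 were not called, leaving 5. Calls of all genes then stood at 25.5%, and at 32.7% without array 1, in either direction.

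Of the 4 tested subunits and receptors of the outer membrane complex, 3 were called on the liver side and none on the spleen side. With Tomm34, which bears the Tomm name but is no subunit, the 5 tested Tomm genes had a median of 0.67. Tomm40l, a relative of the pore protein Tomm40, had 1.17, 1.33 and 1.06 from 1 spot, a mean of 1.19 ± 0.14 (2.27-fold, adjusted p = 0.000755). Tomm70a, a receptor for carrier precursors, had 0.97, 1.34 and 0.75, a mean of 1.02 ± 0.30 (adjusted p = 0.00297), a call that was lost with the gene's own variance. Tomm7, a small subunit that modulates the pore complex, had 0.67, 0.70 and 0.64, a mean of 0.67 ± 0.03 (adjusted p = 0.0045). Tomm7 lost its call without array 1 (adjusted p = 0.0519; its alternatives ran from 0.00282 to 0.0519). The central receptor Tomm22 had -0.12, -0.27 and -0.13, all slightly below 0 in a gene of 3 spots, and was not called (mean -0.17, interval -0.46 to 0.12, adjusted p = 0.254). Tomm22 did not overlap with Tomm40l, Tomm70a or Tomm7 on any array.

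Tomm34 stood apart from all other members. It had -1.66, -1.28 and -1.74, a mean of -1.56 ± 0.24, or 2.95-fold higher on the spleen side (adjusted p = 0.000488). It lay far below the next lowest member, Mrpl3 at -0.23, and only 5.12% of all genes tested ranked below it. Despite its name, Tomm34 is found largely in the cytosol, where it binds the chaperones Hsp70 and Hsp90, and it is no subunit of the pore. It was measured by 1 spot, so no second clone could check its side, and it was called under all 12 alternatives tried.

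The genes without a ratio on all 3 arrays mostly lay below 1 on the arrays that had one. On array 3 alone, Mrpl20 had a ratio of 0.27, Mrps5 of 0.19, Mrps11 of -0.13, Mrps28 of 0.24 and Tomm20, the presequence receptor, of 0.17. Mrpl34 had 1.71 on array 2 alone. Mrpl40 had 0.65 and 0.29 and the pore protein Tomm40 had 0.39 and 0.54, on arrays 1 and 3. Timm8b, a relative of Timm8a1, had 1.40 and 0.31 on the same arrays, from a different spot on each. Mrps22 had -0.0015 and 0.84 on arrays 2 and 3. These 10 genes were not tested.

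Spots of the same gene were compared with each other. Of the 144 spots, 139 were made from AK-numbered cDNA clones. Of 113 spots with a ratio on all 3 arrays, 98 were above 0 on each, 7 below 0 on each, and 8 had mixed signs. For the 30 tested genes with at least 2 such spots, the median SD between spot means over the 3 arrays was 0.14. The median SD between arrays, taken from single spots, was 0.19. Averaging over arrays lowers array noise in the first SD only, so the 2 are unlike measures. With that limit, the spread between spots was the larger in 13 of the 30 genes, and clones cannot be said to differ less than arrays. As means over the 3 arrays, the 6 spots of Mrpl51 ran from 1.00 to 1.38 and the 4 of Mrps34 from 1.17 to 1.46. Within array 3 alone the clones spread more, from 0.83 to 1.43 in Mrpl51 and from 0.59 to 1.28 in Mrps34.

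In 4 genes the spots with a ratio on all 3 arrays lay on opposite sides of 0. Mrpl15, a large subunit protein, had array means of 1.07, 1.17 and 1.08 (mean 1.11 ± 0.05, adjusted p = 0.000757). Of its 6 spots measured throughout, 5 ran from 0.98 to 2.07, and 1 lay at -0.48, with -0.68, -0.30 and -0.45 on the 3 arrays. That spot was below 0 on every array, while the other 5 were above 0 on every array. Timm22 had a spot at 0.77 ± 0.07 and another at -0.31 ± 0.36, so its small mean joins spots that did not overlap. A further spot that enters this mean had 0.81 on array 1 and 0.03 on array 3, and no value on array 2. The spots of Timm21 and Mrpl38 spanned 0 only narrowly, from -0.03 to 0.36 and from -0.11 to 0.13. Mrps24 and Mrpl17 had spots on 1 side but far apart. In Mrps24, 3 spots lay between 1.47 and 1.64 and 1 at 0.26. In Mrpl17, 2 spots lay at 1.64 and 1.77 and 1 at 0.38. What the outlying clones carry was not tested.

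**Figure D2:**
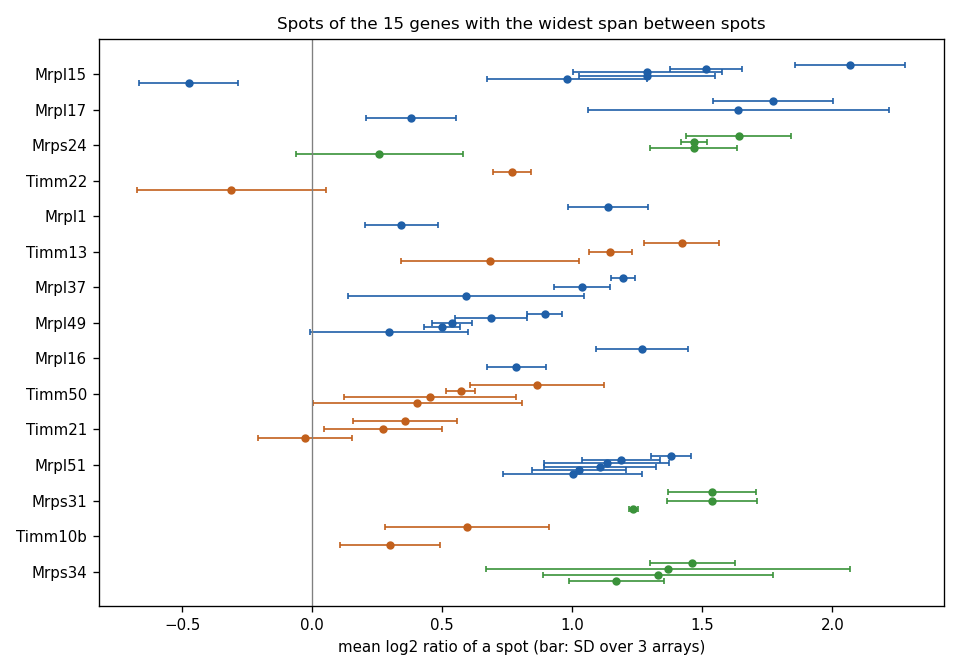
Mean log2 ratio of each spot with a value on all 3 arrays (points, bars are SD over 3 arrays, x axis) for the 15 genes whose spots spanned most (y axis; blue Mrpl, green Mrps, orange Timm). A spot of Mrpl15 lies at -0.48 against 0.98 to 2.07 for its other 5, and a spot of Mrps24 at 0.26 lies apart from its other 3.

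Other parts of the import pathway were on the liver side as well. Of 17 tested genes for the import motor, presequence removal, membrane insertion and quality control, 15 were called on the liver side and none on the spleen side. Their median was 0.99, and the share of 88.2% on the liver side stands beside 27.1% of all genes. Pmpcb, a subunit of the protease that cuts off presequences, had 2.30, 1.66 and 1.73, a mean of 1.90 ± 0.35 (adjusted p = 0.000452). Dnajc19, a co-chaperone of the import motor behind TIM23, had 1.70, 1.81 and 1.77, a mean of 1.76 ± 0.06 (adjusted p = 0.000182). At the low end of the called genes stood Chchd4, which folds proteins of the intermembrane space (0.58 ± 0.14), and Immt, which shapes cristae (0.46 ± 0.06). Without array 1 both lost their calls, and Immt also without array 3. In the setting without array 1, 11 genes of the list were called, and 32.7% of all genes in either direction.

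Genes that assist the mitochondrial ribosome were less one-sided. Of 16 tested genes for mitochondrial translation factors, tRNA charging and transcription, 6 were called on the liver side and 1, Mtif2, on the opposite side, with a median of 0.19; the share of 37.5% on the liver side stands beside 27.1% of all genes. Mrrf, which recycles the ribosome after termination, had 1.83, 1.87 and 0.89, a mean of 1.53 ± 0.56 (adjusted p = 0.00274). Pdf, which removes the formyl group from new proteins, averaged 0.86 ± 0.13 (adjusted p = 0.00228). Mtif2, the initiation factor that brings the first tRNA, had -0.95, -0.85 and -0.75, all on the spleen side (mean -0.85 ± 0.10, adjusted p = 0.00217). Gatc, of the enzyme that makes glutaminyl-tRNA, averaged 0.43 ± 0.24 (adjusted p = 0.0452) and lost its call under 7 of 12 alternatives, among them those without array 1 and without array 3. Of the list, 3 genes were called on the liver side without array 1 and 2 with each gene's own variance, when Mrrf was not called. The shares of all genes called, in either direction, were 32.7% and 25.5%.

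Among 9 tested genes for ribosomal proteins under other symbols and for ribosome assembly, 3 were called on the liver side and 1, Mtg2, on the opposite side, with a median of 0.31; the share of 33.3% on the liver side is near the 27.1% of all genes. Mterf4 (0.81 ± 0.42) and Nsun4 (0.79 ± 0.12), which work as a pair in assembly, and Chchd1 (0.68 ± 0.37), a small subunit protein, were on the liver side. The assembly GTPase Mtg2 had -0.62, -0.44 and -0.46, a mean of -0.51 ± 0.10 on the spleen side (adjusted p = 0.0142). Without array 1 the calls of Mterf4, Chchd1 and Mtg2 were lost, leaving Nsun4, and Mterf4 and Chchd1 were not called with each gene's own variance. Dap3 and Ptcd3, small subunit proteins that lack the Mrps name, averaged 0.21 and 0.31 and were not called.

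**Figure D3:**
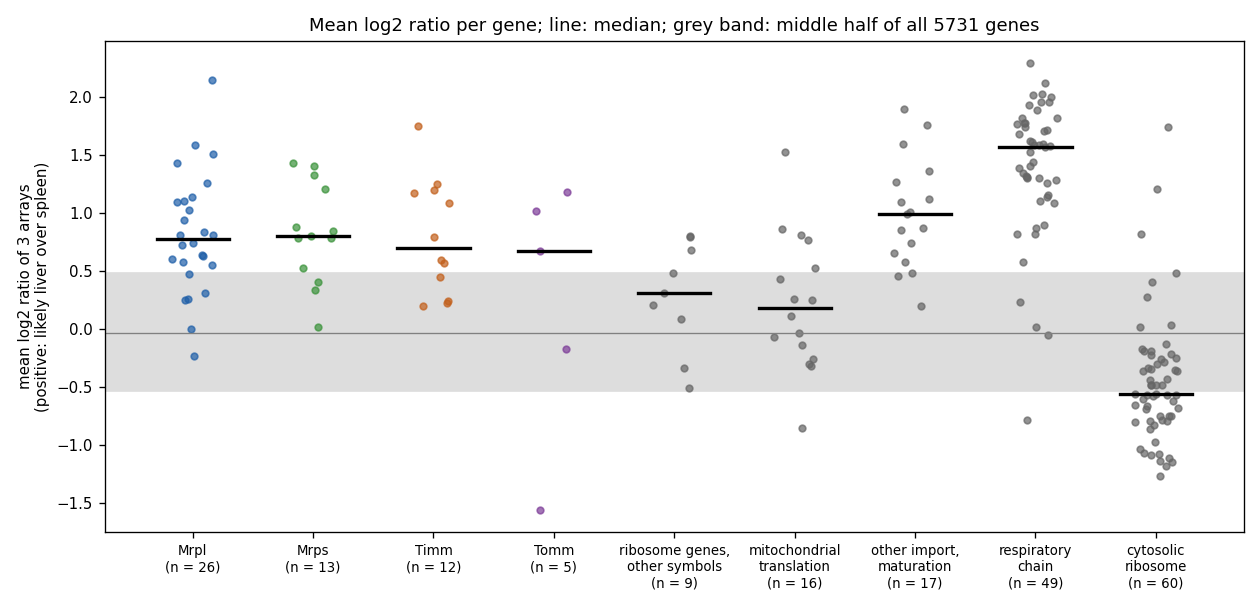
Mean log2 ratio over 3 arrays (y axis, positive likely liver over spleen) of each tested gene, by family or list (x axis); black lines are medians and the grey band holds the middle 50% of all 5731 genes, from -0.54 to 0.49. The Mrpl, Mrps, Timm and Tomm medians (0.77, 0.80, 0.70 and 0.67) lie between that of the respiratory chain at 1.57 and that of the cytosolic ribosome at -0.56.

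The members lay between 2 other groups that bear on the same processes. Respiratory chain and ATP synthase genes, into which the products of the mitochondrial ribosome are built, were called on the liver side in 45 of 49 cases and on the opposite side in 1, with a median of 1.57. That gene, Cox6a1, a subunit of cytochrome c oxidase, had -0.62, -0.98 and -0.77 (mean -0.79 ± 0.18, adjusted p = 0.00402). Its side rested on spots from AW or AU clones: without them it was on the liver side at 1.56 (adjusted p = 0.000395; its alternatives ran from 0.000395 to 0.0579), and with its own variance it was not called. Their median was 1.64, 1.68 and 1.26 on arrays 1, 2 and 3, above the members' 0.81, 0.91 and 0.68 on each. Only 3 of 56 members exceeded the respiratory chain median, and 5 of 49 respiratory chain genes lay below the members' median. The proteins of the cytosolic ribosome had a median of -0.56, with 39 of 60 called on the spleen side and 5 on the opposite side. Among all genes tested, 27.8% were called on the spleen side. Without array 1 the spleen-side calls of the cytosolic ribosome numbered 19, without array 3 they numbered 30, and under unmoderated variance 21. Calls of all genes, in either direction, fell from 54.9% to 32.7%, 47.0% and 25.5% in the same order. Rpl35a, at 1.21 among the 5, turned to -0.36 without AW or AU clones and was then not called (adjusted p = 0.164). The medians of the cytosolic ribosome were -0.54, -0.54 and -0.51, so the medians of the mitochondrial and the cytosolic ribosomal proteins lay on opposite sides of 0 on each array. These differences between lists are descriptions of the same 3 arrays and were not tested.

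**Figure D4:**
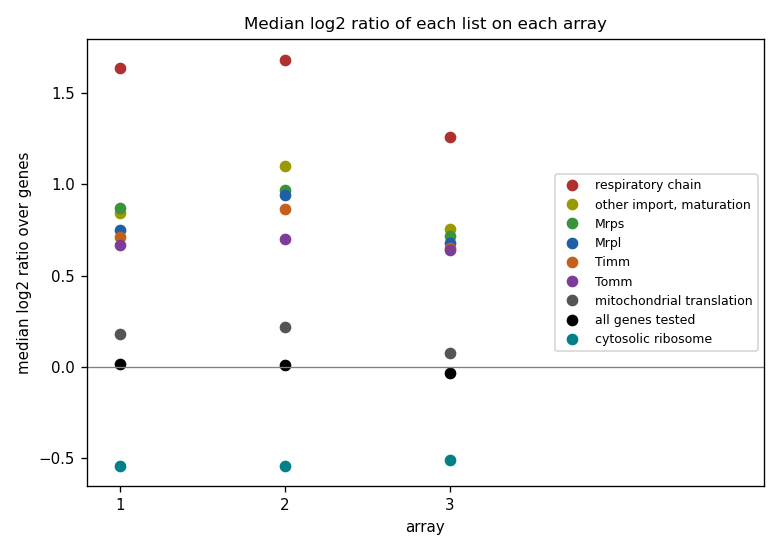
Median log2 ratio over the genes of each family or list (y axis, positive likely liver over spleen) on each of the 3 arrays (x axis). On every array the respiratory chain is highest, the 4 families described here lie between 0.64 and 0.97, and the cytosolic ribosome is lowest.

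The arrays ordered the members alike. Pearson's r across the 56 tested genes was 0.91 between arrays 1 and 2, 0.94 between 1 and 3, and 0.84 between 2 and 3. Spearman's rho was 0.88, 0.91 and 0.78 in the same order. Genes are not independent replicates, and the points share the arrays. The median SD over arrays was 0.17 per member, against 0.22 over all genes tested. Array 3 gave the lowest ratio for 32 members and array 2 the highest for 31, and over all spots array 3 also had the smallest SD (0.98, against 1.12 and 1.22 on arrays 1 and 2). Some genes had spots valued on array 3 alone, which enter the gene's value there only. In Mrps16 such a spot had 0.29 and the spot shared by all arrays 0.74, so the gene had 0.51 on array 3. The part of such spots in the order of the arrays was not tested.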

How the data were processed

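For each spot of an array the authors deposited 1 log2 ratio. The log2 base was read from the values, whose upper limit equals log2 of 100. The sources used here do not state the background correction, normalization, filters or which tissue is the numerator of the ratios. Channel intensities were not used, so signal over background is unknown. The medians over spots with a value were -0.02, 0.03 and 0.05. Exact zeros (3207, 5153 and 1063 spots) were treated as missing. Gene names came from the platform annotation; Entrez identifiers gave current RefSeq symbols (GRCm38.p6) for 12228 of 12397 annotated spots. There were 12336 spots with 1 gene, 61 with several and 3876 with none. Spots of a gene were averaged per array. limma 3.58.1 in R 4.3.3 fitted an intercept to genes with a value on all 3 arrays (lmFit, eBayes with 3.51 prior degrees of freedom, two-sided) with Benjamini-Hochberg adjustment over 5731 genes; 95% intervals use the moderated error. An exact sign-flip test on 3 arrays cannot go below p = 0.25 and was not run. The script was checked on simulated ratios with known changes, 50 genes at each size. It recovered 4% of changes of log2 0.5, 62% of 1, 86% of 2 and 94% of 4, with 2 false calls. Far fewer genes were changed there than were called in the data, so these shares need not hold for the real ratios. Amplification can change relative transcript levels; its effect was not measured here.

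Members and lists were chosen with earlier results of these data known. Array values are given for the 4 highest (above 0) and 3 lowest tested genes of each family, and for every gene called on the spleen side. They are also given for every gene whose spots with a ratio on all 3 arrays lay on opposite sides of 0. From each of the 3 lists on import, translation and assembly the 2 highest and 2 lowest called genes were named, and from the respiratory chain only its 1 spleen-side gene. Genes named beyond this rule were chosen after their values were seen. They are Mrpl17, Mrpl51, Mrps16, Rpl35a, Dap3, Ptcd3, the marker Alas2 and members given by their mean. The classes by symbol number and by import complex, and the motifs, were also chosen after values were seen. Alternatives were exact zeros as values, values on at least 2 arrays, the median over spots, spots valued on all 3 arrays, no AW or AU clones, centred arrays, scaled arrays, unmoderated variance, robust eBayes, and leaving out each array. For the lists beside the members they were added after seeing the data.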

Additional observations from a re-analysis of the deposited data

How the results depend on the processing

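Of the 45 members called, 21 stayed called under all 12 alternatives, and 24 lost the call under at least 1. No called member changed sign. With each gene's own variance 29 members were called, 28 on the liver side, with 13 Mrpl and 5 Timm genes there, while 25.5% of all genes were called. Leaving out each array in turn gave 28 to 45 members called, 27 to 44 on the liver side, 12 to 20 Mrpl and 7 to 12 Mrps genes; the lowest counts were those without array 1, when 32.7% of all genes were called. With exact zeros as values all 66 members were tested and 40 were called, while 33.0% of 7984 genes were called. Mrpl10, Mrpl41, Mrpl45, Mrps7 and Timmdc1 then lost their call. Uncalled genes near 0 turned sign: Mrpl38 was -0.0166 with arrays centred, -0.0267 with arrays scaled and from -0.0737 to 0.127 without each array in turn, and Mrps25 was -0.00044 with arrays centred and from -0.0420 to 0.116 without each array.

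Among the lists beside the members, own variance gave 1 liver-side ribosome gene under another symbol, 2 translation genes, 9 other import genes and 21 spleen-side cytosolic ribosome genes. Leaving out each array gave 1 to 3, 3 to 6, 11 to 15 and 19 to 37. No member spot came from an AW or AU clone, so that setting could act on the members only through the other genes. Without these clones Cox6a1 turned to 1.56 and the cytosolic Rpl35a from 1.21 to -0.36. Each ratio already pairs both tissues on 1 array, and no further block could be added with 1 group of arrays. The number of arrays limits the precision.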
